A study of Mus musculus with 8 samples.

Results

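The Lgr receptors and the R-spondin arm of Wnt signalling were followed through the transcriptome of brown adipose tissue (BAT), the thermogenic fat depot, of WT and Cd36KO mice. The group holds 10 genes of the 31053 listed in the count table, and they were taken by symbol: the receptors Lgr4, Lgr5 and Lgr6, the ligands Rspo1 and Rspo3, the E3 ligases Znrf3 and Rnf43, the Wnt co-receptor Lrp6, and Axin2 and Ctnnb1 of the beta-catenin arm. They were chosen by the level of Lgr6, whose normalized counts were higher in Cd36KO than in WT in these same libraries. The difference in Lgr6 is therefore described without a test, and it supports nothing about the other 9 genes.

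The libraries were bulk RNA-seq of 4 WT and 4 Cd36KO samples, all from C57BL6/J mice labelled as 8 weeks old. The genotype label says only Cd36KO. The study attributes its BAT transcriptome to mice in which Csf1r-Cre, active in macrophages and other myeloid cells, removes a floxed Cd36, and it describes those data as from mice of the labelled age, while its general methods give that line a later age. Whether the WT mice carried Cre or floxed alleles is not given in the sources used here. The count column of 1 Cd36KO library has no replicate number, and it is called the unnumbered Cd36KO library. The study counts 4 mice in each group, and the labels do not tie libraries to animals.

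Total counts per library ran from 2679785 to 4097953. The scavenger receptor gene Cd36 itself had 2412 to 3505 normalized counts (counts divided by a DESeq2 size factor) in WT and 1926 to 2384 in Cd36KO. On this scaling Cd36 was lower in every Cd36KO library (exact two-sided permutation p = 0.0286), though the groups overlapped with TMM factors and as CPM. Cd36 did not pass the threshold across all genes (DESeq2 adjusted p = 0.0602). The labels name the cell type as stromal vascular fraction, yet adipocyte transcripts were abundant in all 8 libraries, with 5 general adipocyte markers summing to 21302 to 38773 normalized counts in WT and 17448 to 22744 in Cd36KO. The methods state male mice, whereas Xist had 772 to 1588 counts in all 8 libraries and the Y-linked Uty, Kdm5d and Eif2s3y had 0, and Ddx3y had 3 counts in 1 library. Markers of skin and mammary epithelium (8 keratin and related genes) summed to 134.5, 116 and 152 normalized counts in WT replicate 1, the unnumbered Cd36KO library and Cd36KO replicate 2, against 0.989 to 13.3 in the other 5. WT replicate 1 also carried the highest sum of 8 skeletal muscle markers, 36136, against 26.6 to 7003 in the other libraries.

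Lgr4, Lgr5 and Lgr6 are leucine-rich-repeat receptors of the G protein-coupled receptor family that bind secreted R-spondins. An R-spondin held by an Lgr receptor engages Znrf3 or Rnf43, membrane ligases that otherwise clear Frizzled receptors and Lrp6 from the cell surface, so that the cell answers Wnt ligands more strongly through beta-catenin. Beta-catenin signalling is known to restrain the formation of adipocytes from precursors, and Lgr6 is best known as a marker of stem cells in skin.

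Lgr6 was the Lgr receptor with the most transcript in this BAT. Its gene lies on chromosome 1 (134983301 to 135105276, minus strand, build GRCm38, protein-coding, ENSMUSG00000042793), and no other annotated gene shares exon sequence with it. In WT, replicates 1 to 4 held 149.8, 78.1, 77.6 and 127.6 normalized counts. The Cd36KO library without a number held 273, and Cd36KO replicates 2, 3 and 4 held 236, 403 and 169. Every Cd36KO library thus lay above every WT library, with Cd36KO replicate 4 closest to WT and Cd36KO replicate 3 far above the rest. With TMM factors the groups were also apart, but as plain CPM (counts scaled to the library total) WT replicate 1, at 54.8, lay just above Cd36KO replicate 4, at 54.2. The group means were 108 ± 36.3 in WT and 270.3 ± 98.3 in Cd36KO (SD over n = 4 each), or a log2 fold change of 1.32 ± 0.30. (SE) The spread between replicates of a group, as an SD of log2 values, was 0.50. The counts behind these values were 66 to 166 in WT and 205 to 394 in Cd36KO libraries, so sampling noise was small beside the spread between libraries. In bulk tissue, more cells that express a gene and more transcript per cell cannot be told apart.

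**Figure D1:**
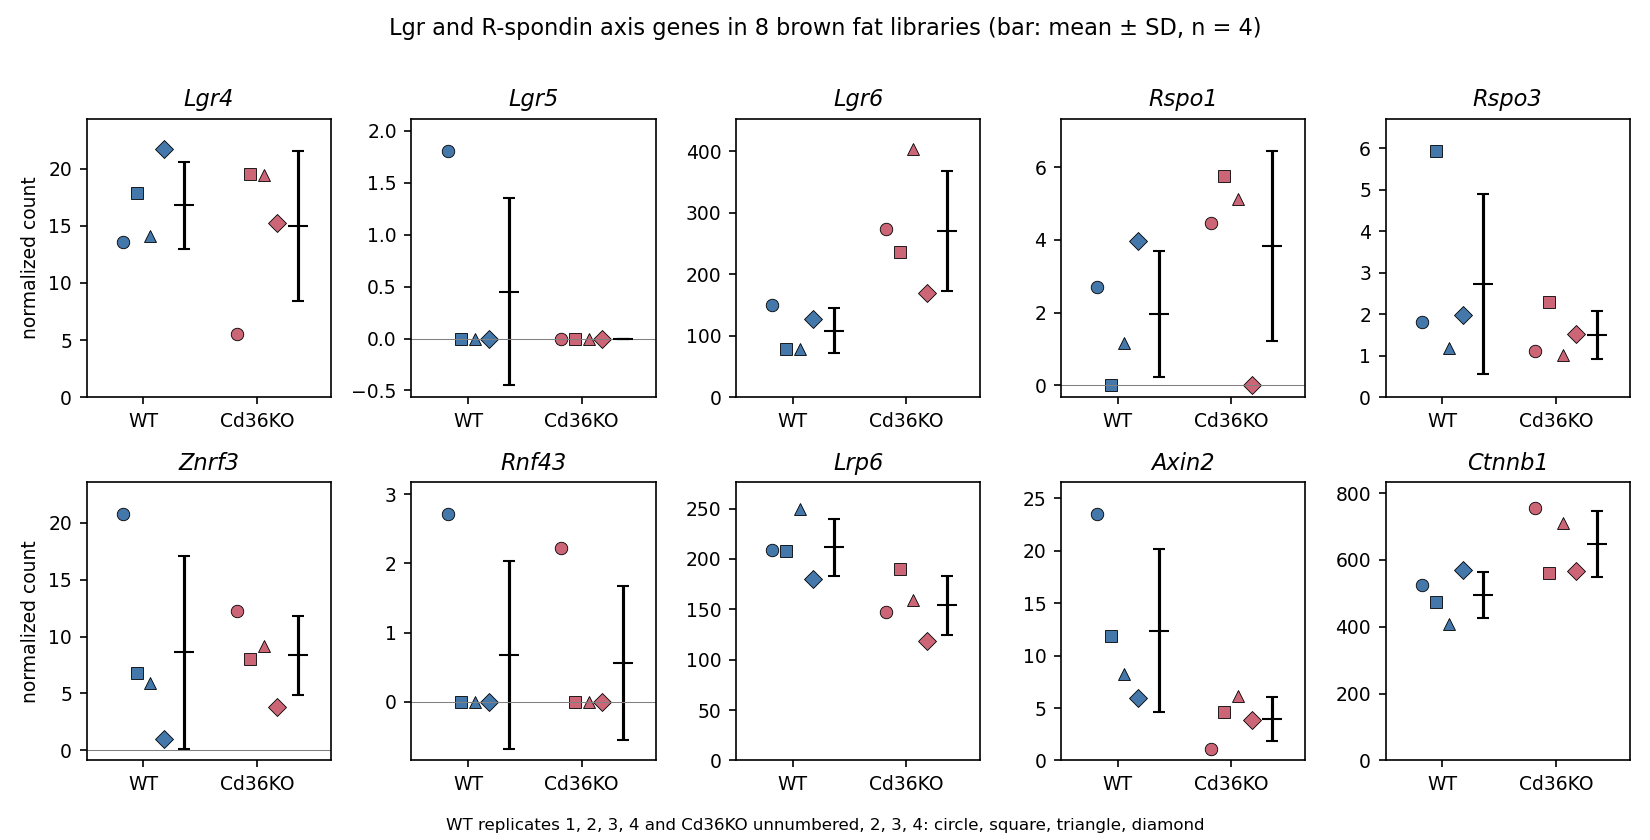
Normalized counts (y axis, linear, a separate scale for each gene) of the 10 genes in 4 WT (blue) and 4 Cd36KO (red) libraries, with the mean ± SD (n = 4) as a black bar beside each group. The Lgr6 points of the groups do not overlap (77.6 to 149.8 in WT, 169 to 403 in Cd36KO) on this scaling, though as CPM they just do (up to 54.8 in WT, from 54.2 in Cd36KO), whereas those of the other 9 genes do.

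Lgr4 was low in both groups. Its gene (chromosome 2, 109917647 to 110014257, plus strand) gave 13.5, 17.8, 14.1 and 21.8 normalized counts in WT replicates 1 to 4. It gave 5.57 in the unnumbered Cd36KO library and 19.6, 19.4 and 15.3 in Cd36KO replicates 2, 3 and 4. Only the unnumbered library stood below the WT range. The log2 fold change was -0.17 ± 0.47 (SE, DESeq2 adjusted p = 0.917), an estimate too wide to show that the groups were alike.

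Lgr5 (chromosome 10, 115450311 to 115587780, minus strand), a stem cell marker of gut and hair follicle, was at the limit of detection. WT replicate 1 gave 2 counts of it, and the other 7 libraries gave 0. A count of 0 at these depths allows up to 0.732 to 1.12 CPM (3 counts). No fold change is given for it.

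Of all counts on the 3 Lgr genes, Lgr6 held 81.4% to 90.7% in the WT libraries. It held 91.7% to 98.0% in the Cd36KO libraries. The lowest share, in WT replicate 2, had a 95% exact binomial interval of 73.0% to 88.1%, and the highest, in the unnumbered Cd36KO library, one of 95.4% to 99.3%, both covering counting error only. Scaled per kb of annotated exon, the share of Lgr6 was 79.0% to 89.8% in WT and 90.5% to 97.7% in Cd36KO. These shares follow from the difference in Lgr6 that chose the genes, and no test was made on them.

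**Figure D2:**
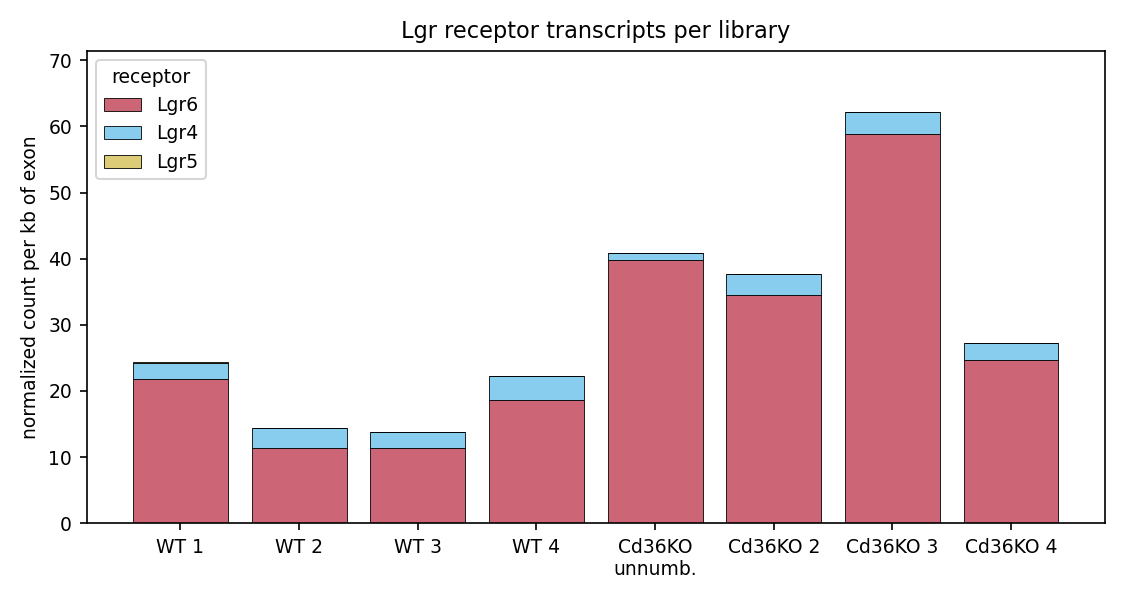
Stacked bars give normalized counts per kb of annotated exon (y axis) for Lgr6, Lgr4 and Lgr5 in each of the 8 libraries. Lgr6 makes up most of every bar (79.0% to 97.7%), Lgr4 the remainder, and Lgr5 is a thin line in WT replicate 1 alone.

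The promoters of Lgr6 and of Axin2, the gene most used as a readout of beta-catenin activity, are shown because the axis ends at TCF/LEF transcription factors, which read it out on DNA. Both windows run from 250 bases before to 50 bases after the start site, come from RefSeq on GRCm38.p6, are written 5′ to 3′ on the strand of the gene, and have CpG dinucleotides in capitals.
Lgr6, chr1:135105227-135105526, minus strand: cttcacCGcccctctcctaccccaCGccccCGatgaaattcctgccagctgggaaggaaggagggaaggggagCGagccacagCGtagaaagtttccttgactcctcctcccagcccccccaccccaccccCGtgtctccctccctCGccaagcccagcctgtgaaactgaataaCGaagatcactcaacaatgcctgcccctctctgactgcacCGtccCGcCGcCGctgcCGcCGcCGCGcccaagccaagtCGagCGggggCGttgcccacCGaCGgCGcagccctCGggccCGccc
Axin2, chr11:108920099-108920398, plus strand: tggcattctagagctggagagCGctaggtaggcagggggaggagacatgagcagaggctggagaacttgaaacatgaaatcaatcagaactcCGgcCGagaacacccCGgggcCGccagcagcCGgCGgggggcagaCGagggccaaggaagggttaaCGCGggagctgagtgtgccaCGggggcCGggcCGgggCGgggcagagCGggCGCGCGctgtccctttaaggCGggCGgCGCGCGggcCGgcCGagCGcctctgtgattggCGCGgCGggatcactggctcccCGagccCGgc
The Lgr6 window held 24 CpG and the Axin2 window 31, where the median over 32851 promoter windows was 7. As many CpG as in Lgr6 were found in 20.0% of all windows, and as many as in Axin2 in 10.6%. The core CTTTGA of the TCF/LEF motif, searched on both strands as CTTTGA and TCAAAG, was in none of the 8 windows listed for 6 of the 10 genes (Lgr4, Lgr6, Rspo1, Rnf43, Axin2 and Ctnnb1). It was in 16.0% of all windows of this length. The absence of these letters from so short a window says nothing about binding of the factors elsewhere.

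The R-spondin ligands were barely detected in either group. Rspo1 (chromosome 4, 124986430 to 125009099, plus strand) had 3, 0, 1 and 4 counts in WT replicates 1 to 4. It had 4 counts in the unnumbered Cd36KO library and 5, 5 and 0 in Cd36KO replicates 2, 3 and 4. Cd36KO replicate 4 had none, while the other 3 Cd36KO libraries lay above every WT library in normalized counts (exact two-sided permutation p = 0.457). Rspo3 (chromosome 10, 29452416 to 29535867, minus strand) had 2, 7, 1 and 2 counts in WT and 1, 2, 1 and 2 in Cd36KO (exact two-sided permutation p = 0.314). Both of the remaining family members were lower still, with no count of Rspo2 in any library and, for Rspo4, a mean of 0.742 ± 1.48 normalized counts in WT against 1.09 ± 1.58 in Cd36KO (SD, n = 4 each). At this depth no difference in Rspo1 or Rspo3 transcript between the groups was detected. How large a difference could have been detected was not tested.

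The ligases that R-spondins remove were also low. Znrf3 (chromosome 11, 5276324 to 5444847, minus strand) had 20.8, 6.79, 5.88 and 0.989 normalized counts in WT, and 12.3, 8.05, 9.21 and 3.81 in Cd36KO. Its range was widest in WT, and WT replicate 1 held the highest value (exact two-sided permutation p = 0.686). Rnf43 (chromosome 11, 87662722 to 87735539, plus strand) was seen only in WT replicate 1 with 3 counts and the unnumbered Cd36KO library with 2 counts, and 0 in the other 6. Both libraries with any Rnf43 count were among the 3 with epithelial markers, and the part of those cells in the Rnf43 and Znrf3 counts was not tested.

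Lrp6, which pairs with Frizzled to receive Wnt, had lower values in Cd36KO without passing the test. The gene (chromosome 6, 134446476 to 134566965, minus strand) gave 208.5, 208.1, 249.3 and 180.0 normalized counts in WT. It gave 147 in the unnumbered Cd36KO library and 189.9, 159.6 and 119 in Cd36KO replicates 2, 3 and 4. Cd36KO replicate 2 lay above WT replicate 4, and the groups otherwise did not overlap. The means were 211.5 ± 28.5 and 153.9 ± 29.4 (SD, n = 4 each), or a log2 fold change of -0.46 ± 0.20 (SE, DESeq2 adjusted p = 0.214, exact two-sided permutation p = 0.0571).

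Axin2 (chromosome 11, 108920349 to 108950783, plus strand) encodes a scaffold of the complex that degrades beta-catenin and is itself switched on by beta-catenin. It had 23.5, 11.9, 8.23 and 5.93 normalized counts in WT. It had 1.11 in the unnumbered Cd36KO library and 4.60, 6.14 and 3.81 in Cd36KO replicates 2, 3 and 4. The highest Cd36KO value just exceeded the lowest WT value. The log2 fold change was -1.66 ± 0.70 (SE, exact two-sided permutation p = 0.0571). The DESeq2 p was 0.0181 before adjustment, and the mean count lay under the limit of 11 for an adjusted p, which was 0.325 with that limit removed. Of the 53 WT counts, 26 came from WT replicate 1, and without that library the log2 fold change was -1.15. Without the 3 libraries with epithelial markers it was -0.83.

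Ctnnb1 encodes beta-catenin and had the highest level of the 10 genes. The gene (chromosome 9, 120929216 to 120960507, plus strand) gave 526, 475, 409 and 571 normalized counts in WT, and 754, 560.4, 711 and 567 in Cd36KO. WT replicate 4 lay within the Cd36KO range. The means were 495 ± 69.4 and 648 ± 99.0 (SD, n = 4 each), or a log2 fold change of 0.39 ± 0.17 (SE, DESeq2 adjusted p = 0.229, exact two-sided permutation p = 0.0857). The transcript of beta-catenin and that of its target Axin2 thus had estimates of opposite sign, and neither passed the threshold.

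Across the 9 genes other than Lgr6, 0 passed an adjusted p of 0.05 in DESeq2, in a comparison in which 2.95% of the 9617 genes with an adjusted p did. Lgr4, Lrp6 and Ctnnb1 had enough counts for that value, and the other 6 did not. Before adjustment, 3 of the 9 (Lrp6, Axin2 and Ctnnb1) had a DESeq2 p under 0.05, against 9.76% of all 17361 genes with a p. The edgeR quasi-likelihood test also called 0, beside 0.143% of the 9793 genes it tested. Before adjustment 1 of the 3 genes it tested (Lrp6) was under 0.05, beside 16.1% of all genes. In limma 0 passed, as for all genes (0.0%), and 2 of the 3 (Lrp6 and Ctnnb1) were under 0.05 before adjustment, beside 15.7%. The exact test over 70 arrangements of the libraries can reach 0.0286 at best, which takes groups without overlap. None of the 9 reached it, and the share over all genes is known here only for those averaging 10 or more. Only 3 of the 9 averaged 10 normalized counts or more, and 0 of these were without overlap between the groups, beside 8.65% of all genes at that level.

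On the scale of normalized counts per kb of annotated exon, the WT order ran from Ctnnb1 at 95.4 ± 13.4 through Lgr6 at 15.8 ± 5.30, Lrp6 at 15.5 ± 2.09 and Lgr4 at 2.86 ± 0.647 to Axin2 at 2.25 ± 1.41 (SD, n = 4 each). The remaining 5 genes were at 1.09 or below. The WT ranges of Lgr6 and Lrp6 overlapped, as did those of every pair of neighbours from Lgr4 downwards. In Cd36KO the order began with Ctnnb1 at 125 ± 19.1, Lgr6 at 39.5 ± 14.4 and Lrp6 at 11.3 ± 2.15, and these 3 did not overlap on this scale. Without scaling by length the Lgr6 and Lrp6 ranges did overlap in Cd36KO (Lgr6 from 169, Lrp6 up to 189.9 normalized counts), and 4 of the 10 genes took another rank in WT, Lgr6 moving below Lrp6. The library preparation is called digital mRNA-seq in the labels, and whether reads cover whole transcripts is not stated, so the order per kb is uncertain.

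Markers of other cell types were set beside Lgr6 in each library. The epithelial marker sum was 134.5 in WT replicate 1, which had 149.8 normalized counts of Lgr6, and 0.989 to 2.55 in the other WT libraries, which had 77.6 to 127.6. Cd36KO replicate 3, the library with the most Lgr6, had an epithelial sum of 13.3. The unnumbered Cd36KO library and Cd36KO replicate 2, with 273 and 236 of Lgr6, had sums of 116 and 152, and Cd36KO replicate 4, with 169, had 1.53. The part of epithelium in the Lgr6 level was not tested. Left without the 3 libraries with an epithelial sum above 50, the log2 fold change of Lgr6 was 1.60. That run kept only WT replicates 2, 3 and 4 and Cd36KO replicates 3 and 4, among them the library with the most Lgr6. The 6 markers of smooth muscle and pericytes summed to 804 to 1543 normalized counts in WT and to 761 to 1130 in Cd36KO, with no group separation, and most of the sum was Rgs5 (825 and 710.1 on average). None of the 6 passed the DESeq2 threshold, and the farthest from 0 was Cnn1, at a mean of 7.40 in WT and 21.1 in Cd36KO (DESeq2 adjusted p = 0.164). The 8 skeletal muscle markers summed to 445 to 36136 in WT and to 26.6 to 4275 in Cd36KO. All 8 had negative log2 fold changes, of -2.51 to -3.95, and 0 of them passed the DESeq2 threshold, and their part in the Lgr6 difference was not tested. The 8 brown adipocyte markers summed to 17299 to 22988 in WT and to 31421 to 40088 in Cd36KO. Their sum thus parted the groups as Lgr6 did. Most of it was Cidea (8451 in WT and 16607 in Cd36KO on average) and Ucp1 (5347 and 9429). Singly, Ucp1, Cidea and Cox8b did not overlap between the groups, whereas Dio2, Prdm16, Ppargc1a, Elovl3 and Cox7a1 did. The part of these markers in the Lgr6 difference was not tested. The 6 white fat markers summed to 571 to 3604 in WT and to 304 to 465 in Cd36KO. Most of the white fat sum was Nnat (1962 and 327 on average), and Hoxc10 had no count. Past the DESeq2 threshold, 4 white fat markers were lower, beside 1.53% of all genes with an adjusted p. In the other direction, 4 brown adipocyte markers were higher past it, beside 1.42%.

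**Figure D3:**
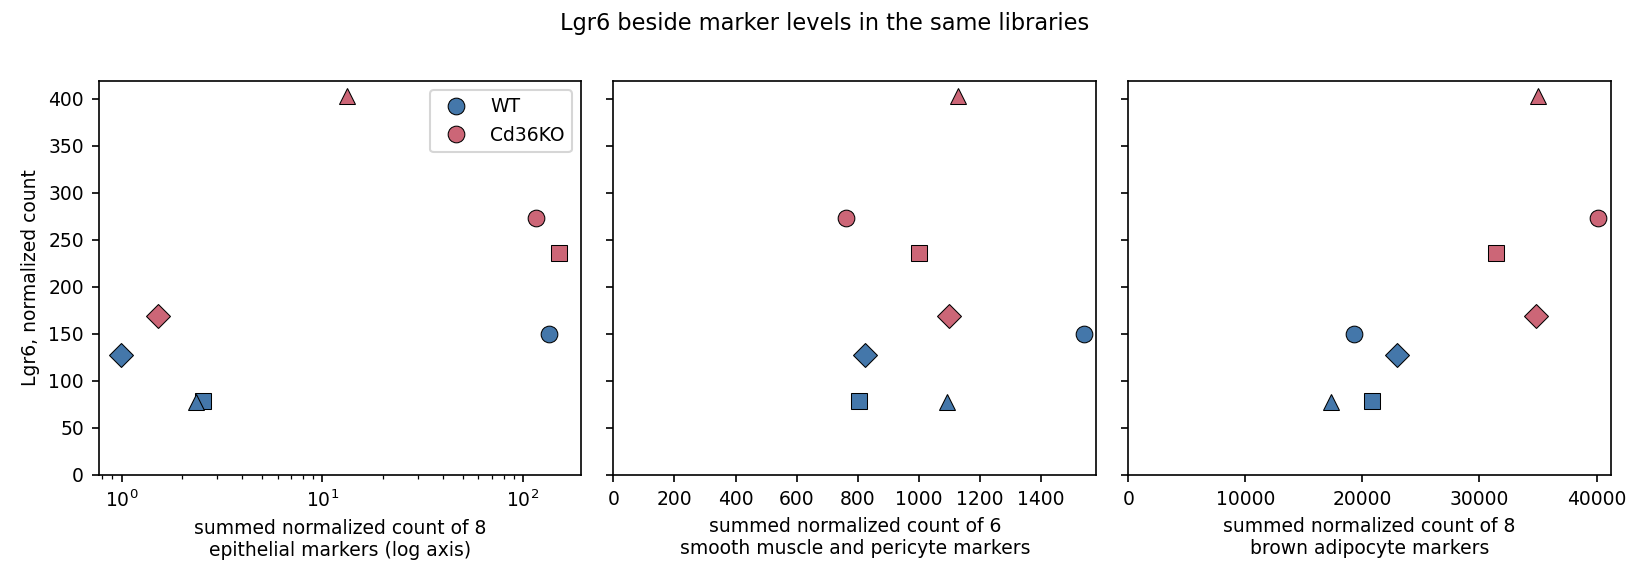
Normalized counts of Lgr6 (y axis) against the summed normalized counts of epithelial (log axis), smooth muscle and pericyte, and brown adipocyte markers (x axes) in the same 4 WT (blue) and 4 Cd36KO (red) libraries. The Cd36KO library with the highest Lgr6, 403, has an epithelial sum of 13.3, and all Cd36KO libraries lie to the right of all WT libraries on the brown adipocyte axis.

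Genes whose level followed Lgr6 within the groups were sought over the 8 libraries, after the group mean of each gene was subtracted, among the 5527 genes that averaged 50 normalized counts or more. The 5 with the highest Pearson r were Rnf152, Rab12, Acss1, Csrp2 and B3gat3, with r of 0.974, 0.972, 0.954, 0.952 and 0.936. Spearman's rho was 0.929, 1, 0.952, 0.952 and 0.905, and r was between 0.932 and 0.958 without the 2 libraries farthest from the median of Lgr6. These are the top of a ranking over all genes, so no p is attached. Rnf152, a lysosomal ubiquitin ligase, averaged 490 ± 142 normalized counts in WT, against 638 ± 166 in Cd36KO (SD, n = 4 each). Acss1, the mitochondrial acetyl-CoA synthetase, was at 253 ± 84.9 and 354.9 ± 89.5. Csrp2, a LIM-domain protein, was at 228 ± 29.6 in WT and 354.8 ± 52.9 in Cd36KO, with a log2 fold change of 0.64 (DESeq2 adjusted p = 0.0218). The other 4 did not pass. Among the genes of the axis with enough counts, Ctnnb1 ranked 122nd, with r = 0.766, and Lrp6 ranked 2365th, with r = 0.062.

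The wider Wnt pathway was read from a list of 90 further genes set by role. Of these, 17 had no count in any library, 35 averaged 10 normalized counts or more, and 34 had an adjusted p. A single gene, Fzd4, passed the DESeq2 threshold, and it was lower in Cd36KO, while 0 were higher. That is 2.94% of the 34, beside 2.95% of all genes with an adjusted p (1.42% higher and 1.53% lower). The edgeR test called 0 of 35, beside 0.143% of all genes it tested. Before adjustment 5 of the 35 had an edgeR p under 0.05, beside 16.1% of all genes. Before adjustment, 7 of 73 genes with a DESeq2 p were under 0.05, or 9.59% beside the 9.76% of all genes. The median log2 fold change of the 34 was -0.14, with 14 above and 20 below 0, and that of all genes was -0.0087.

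Fzd4, a Frizzled receptor of Wnt and of norrin, had 483, 635, 742 and 552 normalized counts in WT. It had 283 in the unnumbered Cd36KO library and 377, 399 and 464 in Cd36KO replicates 2, 3 and 4. The groups did not overlap, and the nearest values were those of Cd36KO replicate 4 and WT replicate 1. The log2 fold change was -0.66 ± 0.20 (SE, DESeq2 adjusted p = 0.0386, exact two-sided permutation p = 0.0286, the smallest possible). In edgeR the adjusted p was 0.137. The call was also lost without WT replicate 2 or 3, the unnumbered Cd36KO library, or Cd36KO replicate 2 or 3, with log2 fold changes of -0.54 to -0.68. White fat markers were also lower in Cd36KO, and their part in its difference was not tested. The 6 endothelial markers summed to 1016 to 1336 in WT and to 1118 to 1755 in Cd36KO. None of the 6 passed the DESeq2 threshold, with log2 fold changes from -0.59 (Cdh5) through -0.07 (Tie1), -0.06 (Vwf), -0.05 (Pecam1) and 0.41 (Kdr) to 0.69 (Egfl7), and their part was not tested. The 16 genes listed as Frizzled and other Wnt receptors include Ndp, which encodes the ligand norrin and had no count. Of the 16, 6 averaged 10 normalized counts or more. Ryk, a kinase-like Wnt receptor, was next in level after Fzd4, with a log2 fold change of -0.38 (DESeq2 adjusted p = 0.494).

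Among ligands, 18 of the 19 Wnt genes had a mean under 10 normalized counts. Wnt5a, which acts largely outside beta-catenin, was the exception, at 42.7 ± 6.22 in WT and 57.6 ± 10.5 in Cd36KO (SD over n = 4 each), or a log2 fold change of 0.42 (DESeq2 adjusted p = 0.468). Wnt4 came next, at 5.27 ± 8.53 and 6.99 ± 7.63. The release factors Porcn, which lipidates Wnts, and Wls, which carries them to the membrane, had log2 fold changes of 0.41 and -0.15 (DESeq2 adjusted p = 0.607 and 0.820). Of the secreted and surface inhibitors, 14 of 16 were under 10 normalized counts, and the highest, Sfrp1 and Kremen1, had 12.2 ± 8.91 and 11.3 ± 5.37 in WT.

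The cytoplasmic relay was the best measured layer, with all 13 genes at 10 normalized counts or more, and 0 passed the DESeq2 threshold. Csnk1e, a kinase that acts on Dishevelled, came closest, with 101, 124, 156.4 and 156.3 normalized counts in WT and 79.1, 79.4, 91.0 and 85.4 in Cd36KO. Its groups did not overlap, and the log2 fold change was -0.68 ± 0.22 (SE, DESeq2 adjusted p = 0.0600). Without WT replicate 1 its adjusted p was 0.0200, at a log2 fold change of -0.79. Gsk3a, a kinase that marks beta-catenin for degradation, was at 142 ± 23.1 in WT and 185 ± 15.7 in Cd36KO, and Tnks, which degrades axin, at 77.6 ± 6.03 and 60.8 ± 8.57 (SD, n = 4 each). Neither of these passed (DESeq2 adjusted p = 0.286 and 0.473), although neither overlapped between the groups on this scaling. As CPM, Tnks did overlap and Gsk3a, Csnk1e and Fzd4 did not. Non-overlap was seen in 4 of the 35 Wnt genes with a mean of at least 10, or 11.4% (Gsk3a higher, and Fzd4, Csnk1e and Tnks lower), beside 8.65% of the 9834 such genes in the table (4.74% higher and 3.91% lower). Gsk3b and Csnk1a1, at 604 ± 81.8 and 643 ± 82.2 in WT, had log2 fold changes of 0.06 and 0.08 with standard errors of 0.15 and 0.16.

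In the nuclear TCF/LEF arm, 10 of 13 genes had an adjusted p, 0 passed, and 8 had a negative log2 fold change, where over all genes 4888 were negative and 4729 positive. The lowest adjusted p of the arm was that of Tcf7l2, a TCF factor named here after its values were seen, at 203 ± 48.0 in WT and 135 ± 35.2 in Cd36KO, with a log2 fold change of -0.60 (DESeq2 adjusted p = 0.179). Bcl9l, a co-activator of beta-catenin, was at 329.8 ± 62.3 in WT and 252 ± 14.8 in Cd36KO (SD over n = 4 each), or a log2 fold change of -0.38 (DESeq2 adjusted p = 0.251). Ctnnbip1, an inhibitor that blocks beta-catenin from TCF, was at 339 ± 40.9 and 430.1 ± 107, a log2 fold change of 0.34 (DESeq2 adjusted p = 0.410). Of the 9 feedback and target genes, only Ccnd1, cyclin D1, had enough counts for an adjusted p. It had 211, 58.6, 49.4 and 31.7 normalized counts in WT, and 117, 181, 95.1 and 46.5 in Cd36KO, a log2 fold change of 0.32 ± 0.70 (SE, DESeq2 adjusted p = 0.886). Its 3 highest libraries were the 3 with epithelial markers, and without WT replicate 1 its log2 fold change was 1.23 (DESeq2 adjusted p = 0.0403). Without all 3 of those libraries it was 0.60 (DESeq2 adjusted p = 0.849). Dact1, next in level by the mean over all libraries, had 4.49 ± 3.06 in WT and 3.09 ± 1.74 in Cd36KO. Within a group it was not next, as Nkd1 was higher in WT (5.14) and Nkd2 in Cd36KO (3.67).

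**Figure D4:**
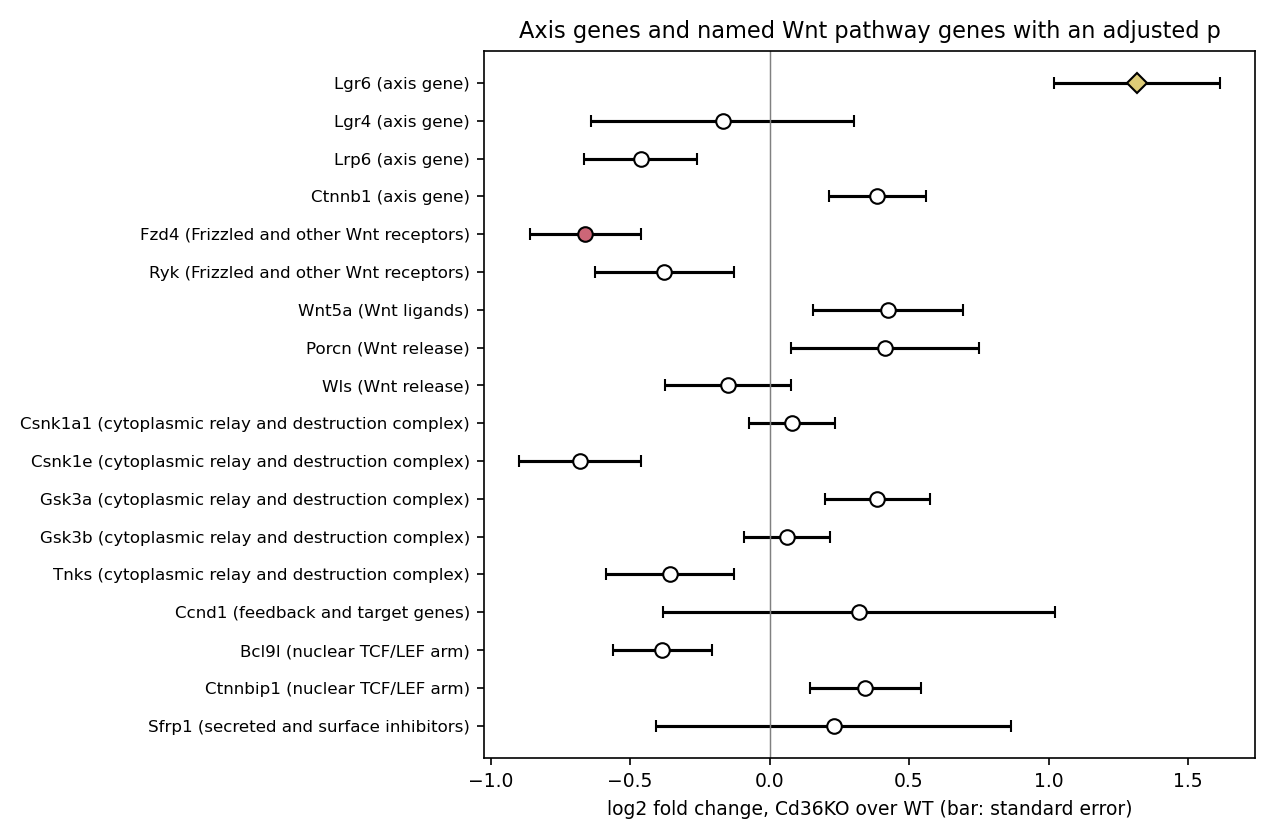
Log2 fold change of Cd36KO over WT with its standard error (x axis) for axis genes and named Wnt pathway genes that had enough counts for a DESeq2 adjusted p. The red point (Fzd4, -0.66) passed an adjusted p of 0.05, open points did not, and the yellow diamond (Lgr6, 1.32) is the gene that chose the group and is shown without a test.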

How the data were processed

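The study's methods name bbduk for trimming, STAR for alignment to mm10 and HTSeq-count for gene counts as the tools the authors ran. In contrast, the study's own list of software and the submitters' processing notes name Trimmomatic and HISAT2. The table analysed holds the deposited raw counts, whole numbers for each gene. A second deposited table holds log2 values, checked to equal log2 of count over size factor plus 1, and served only an alternative test. The annotation release and strand setting are not given in the sources used here, so antisense overlaps are uncertain. Rspo3, Axin2 and Ctnnb1 share exon sequence with opposite-strand genes, and Ctnnb1 also with the same-strand Mir7090. Those overlapping genes held 0, 3 and 5 counts for Rspo3, Axin2 and Ctnnb1.

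Symbols came from GENCODE M21 (GRCm38, the authors' build), and 31011 of 31053 identifiers matched. DESeq2 1.42.0 in R 4.3.3 was fitted on all genes with genotype as the only term and Benjamini-Hochberg adjustment, since the study used it. Alternatives were edgeR 4.0.16, limma 3.58.1 on the deposited log2 values, TMM factors, low-count filters, the replicate block and leaving out each library. Single genes were tested by exact two-sided permutation (SciPy 1.17.1) of log2(normalized count + 1). The functions were tested on simulated data. Figures used matplotlib 3.10.9.

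The 10 genes and all lists were chosen with earlier results of these data known. Named Wnt genes are those past the threshold, those with a mean of at least 10 and no overlap between groups, and the 2 of each role with the highest mean over all libraries. Chi-square values between libraries of a group were at least 6.43 per degree of freedom, so libraries differed by more than counting noise. Each library was counted as a replicate, though these values cannot show that each came from a separate animal.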

Additional observations from a re-analysis of the deposited data

Results flagged for a closer look

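The 19 genes of the axis and of the named Wnt genes that averaged 10 normalized counts or more gave 38 groups of 4 libraries. A single library stood well apart from the remaining 3 in 1 of these groups on log2(normalized count + 1) and in 2 on untransformed normalized counts, where chance (about 1 in 20) gives 1.9. Porcn, on both scales, had 44.0 normalized counts in Cd36KO replicate 3, against 26.7 to 29.0 in the other Cd36KO libraries. Ccnd1, on the untransformed scale alone, had 211 in WT replicate 1, against 31.7 to 58.6 in the other WT libraries.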

How the results depend on the processing

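None of the 9 genes other than Lgr6 passed under any alternative run, and the Lgr6 log2 fold change stayed between 1.06 and 1.60. Leaving out a library in turn gave 1.06 to 1.51 for Lgr6, 0 to 3 Wnt pathway calls and 70 to 498 calls over all genes, in place of 1 and 284. The Wnt count was 3 without WT replicate 1 (Ccnd1, Csnk1e and Fzd4). The count over all genes was 70 without WT replicate 2 and 498 without WT replicate 4. Over all genes, edgeR gave 14 calls, limma 0 (with 1542 of 9793 genes, and 5 of 35 Wnt genes, under 0.05 before adjustment) and independent filtering off 171. Of Wnt genes, edgeR, limma, independent filtering off and the replicate block each gave 0, and a filter of 10 counts in 4 libraries gave 2 (Csnk1e and Fzd4). The cause of these changes was not tested.

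The replicate numbers 2, 3 and 4 are shared by both groups. Same-numbered libraries had correlations of -0.13, 0.42 and 0.14 between their deviations. By these correlations, 2 of 3 WT and 1 of 3 Cd36KO libraries were closest to their own number. So few libraries cannot settle whether the same-numbered ones were paired, and the main fit did not use the number. The replicate block gave 221 calls over all genes and Fzd4 at -0.63 (DESeq2 adjusted p = 0.128), against 262 calls and Fzd4 at -0.63 (DESeq2 adjusted p = 0.0352) in the same 6 libraries without it.

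Signs turned only for genes that did not pass in the main fit, and of these Ccnd1 did pass without WT replicate 1. Under the block, Lgr4 was at 0.02, Znrf3 at 0.83 and Kremen1 at 0.0082. In the same 6 libraries without it, Lgr4 was at 0.0048 and Znrf3 at 0.61. Without the 3 libraries with epithelial markers, an alternative chosen after seeing the data, Znrf3 was at 0.50 and Wnt4 at -1.23, Fzd4 did not pass (-0.57, DESeq2 adjusted p = 0.235), and Tcf7l2 was the 1 Wnt gene called. The Znrf3 difference in the exact test was 0.34 on log2(normalized count + 1) and -0.274 on untransformed normalized counts, and its DESeq2 log2 fold change with all 8 libraries was -0.07. Leaving out a library gave ranges of -0.32 to 0.10 for Lgr4, -0.45 to 0.85 for Znrf3, -0.03 to 1.23 for Ccnd1, -0.0026 to 0.14 for Csnk1a1, -0.02 to 0.13 for Gsk3b, -0.52 to 0.11 for Kremen1, -0.15 to 0.72 for Sfrp1 and -0.19 to 2.79 for Wnt4. At 2679785 to 4097953 counts per library, 6 of the 10 genes lacked the counts for an adjusted p.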

Other observations

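Some Wnt genes were seen mainly in the 3 libraries with epithelial markers, and they are named here after their values were seen. Wnt4 had 18.1 normalized counts in WT replicate 1, 13.4 in the unnumbered Cd36KO library and 13.8 in Cd36KO replicate 2, against at most 1.18 in the other 5 libraries. Wnt7b had 2.23 and 8.05 in those Cd36KO libraries and 0 in the other 6 libraries. Krt18, a keratin of simple epithelium, had 40.6, 42.3 and 79.4 in the 3 libraries, and Epcam, an epithelial adhesion molecule, had 29.8, 17.8 and 33.4.

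Among genes under 10 normalized counts, Fzd9 had 19.0, 2.55, 2.35 and 3.96 in WT and 0, 0, 1.02 and 0.763 in Cd36KO, also named after its values were seen and so given without a test. Of its 30 WT counts, 21 came from WT replicate 1. It lacked the counts for an adjusted p.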
